A study of Mus musculus with 4 samples.

Results

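Adiponectin receptors and the subunits of AMP-activated protein kinase (AMPK) were examined in mouse 3T3-L1 cells exposed to risperidone, an antipsychotic drug that blocks dopamine and serotonin receptors. The genes were the rows of the deposited expression table whose symbol was Adipor1, Adipor2, Paqr3, Prkaa1, Prkaa2, Prkab1, Prkab2, Prkag1, Prkag2 or Stk11. All 10 were found among 16051 listed genes, and all 10 had a mean of at least 1 FPKM (fragments mapped, scaled by transcript length and library depth) and entered the test with 10243 genes. 3T3-L1 is an established preadipocyte line of mouse embryonic fibroblast origin, labelled here with the strain NIH SWISS. Differentiated cells received 100 μM risperidone or the solvent DMSO for 48 h, and each of the 2 libraries per treatment was made from RNA pooled from 3 cultures. The labels call the control untreated and mention retina in the extraction text. Both groups shared the differentiation protocol, and no genetic change is named for either.

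Adiponectin is a hormone secreted by fat cells that lowers lipid storage and raises fatty acid oxidation in its target tissues. Its receptors AdipoR1 and AdipoR2 are membrane proteins that signal to AMPK, the energy sensor of the cell, and the kinase LKB1 (encoded by Stk11) switches AMPK on by phosphorylating its catalytic subunit. AMPK is a complex of a catalytic α subunit, a scaffolding β subunit that binds glycogen and a γ subunit that binds AMP, ADP and ATP, and each subunit is encoded by more than one gene. Transcripts were measured, not protein or phosphorylation.

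α1 (Prkaa1), γ1 (Prkag1) and AdipoR1 (Adipor1) were the dominant isoforms of their classes with both treatments, whereas β1 (Prkab1) and β2 (Prkab2) were close in level. After risperidone, Adipor1, Paqr3, Stk11, Prkaa2, Prkab1 and Prkab2 were higher and Adipor2 and Prkag1 were lower than with DMSO in edgeR's quasi-likelihood test at a Benjamini-Hochberg adjusted p under 0.05, while Prkaa1 and Prkag2 did not pass it. Of the 10 genes, 6 were thus higher, 2 lower and 2 not called. Among all genes tested 64.3% were called, 32.1% higher and 32.2% lower. Of the 10 genes, 7 had already been singled out by the study in these libraries, and their directions are not independent evidence. The absolute log2 fold change had a median of 0.427 over the 10 genes and of 0.299 over all genes tested.

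The libraries held 15883712 to 16374119 estimated counts, and a count of 0 allows up to 3 counts, or 0.183 to 0.189 CPM (counts scaled to library size), for counting error only. Of 12 adipocyte markers, 8 were under 1 FPKM in every library, among them Adipoq, Plin1, Cebpa, Slc2a4 and Lep. Fabp4, Lpl, Pparg and Cd36 made up nearly the whole summed marker level of 379 and 432 FPKM with DMSO and 266 and 277 FPKM with risperidone. The lower sum lay in Fabp4 (130.09 and 168.66 against 59.51 and 71.18 FPKM) and Lpl (234.05 and 250.31 against 192.03 and 190.94 FPKM), while Pparg (12.51 and 11.41 against 12.78 and 12.47 FPKM) and Cd36 (1.21 and 1.14 against 1.04 and 1.66 FPKM) overlapped between treatments. Fibroblast and preadipocyte markers, of which 7 of 8 had a mean of at least 1 FPKM, summed to 2110 and 2050 FPKM with DMSO and to 2300 FPKM in both risperidone libraries. Within that sum Dlk1 (30.38 and 32.85 against 81.7 and 83.28 FPKM), Thy1 (35.81 and 36.71 against 70.36 and 70.38 FPKM) and Col1a1 (379.76 and 368.28 against 714.61 and 674.25 FPKM) were at higher levels after risperidone and Col1a2 (1028.87 and 991.61 against 833.39 and 864.76 FPKM) at lower levels, each without overlap. In FPKM, where the median gene of all tested changed by -6.2%, Pdgfra (13.47 and 13.34 against 11.95 and 12.56) was lower without overlap. So was Vim (615.85 and 600.47 against 588.71 and 588.7 FPKM), but its counts overlapped (17130 and 16222 against 16294 and 16062). Risperidone replicate 2 held kidney-type transcripts, with a sum over 15 kidney markers of 219 FPKM against 1.91 to 3.12 FPKM in the other libraries. The same library had 11.0 FPKM over 6 liver markers, against at most 0.21 FPKM elsewhere, of which Cyp2e1 gave 9.19 FPKM and Alb 0.16 FPKM. Skeletal muscle markers summed to 2.88 to 5.15 FPKM, retina markers to 0.8 to 1.23 FPKM and leukocyte markers to 2.84 and 4.05 FPKM with DMSO and 6.68 and 7.06 FPKM with risperidone. Nearly all of the leukocyte sum was Cd68 (2.64 and 3.5 against 6.34 and 6.7 FPKM), whereas Ptprc and Cd3e were at 0 to 0.05 FPKM and Lyz2 at 0.2 and 0.55 against 0.33 and 0.27 FPKM. In bulk RNA, fewer cells of a type and less RNA per cell cannot be told apart, and the part of any of these cell types in the values below was not tested, although each fold change was also computed without risperidone replicate 2.

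Since AMPK isoforms are paralogs, the resemblance of their coding sequences bears on whether reads can be assigned to one of them. The stretches shown here surround the longest identical run of each pair, with mismatched bases in capitals, in the GENCODE M21 coding sequences (GRCm38). Between the catalytic subunits, 71 bases that begin at the start codon of Prkaa2 differed at 7 positions and held an identical run of 35 bases.
Prkaa1: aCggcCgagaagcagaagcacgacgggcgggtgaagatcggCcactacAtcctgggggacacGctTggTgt
Prkaa2: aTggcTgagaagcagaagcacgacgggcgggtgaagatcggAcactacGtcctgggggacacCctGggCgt
The β pair differed at 13 of 83 bases in the stretch shown, with an identical run of 23 bases.
Prkab1: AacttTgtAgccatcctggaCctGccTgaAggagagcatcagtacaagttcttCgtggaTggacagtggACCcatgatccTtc
Prkab2: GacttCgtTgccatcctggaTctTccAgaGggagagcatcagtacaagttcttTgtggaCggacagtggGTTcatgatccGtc
The stretch of the γ pair had 21 mismatches in 75 bases and an identical run of 15 bases.
Prkag1: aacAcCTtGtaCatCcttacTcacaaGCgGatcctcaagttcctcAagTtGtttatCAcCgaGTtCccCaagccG
Prkag2: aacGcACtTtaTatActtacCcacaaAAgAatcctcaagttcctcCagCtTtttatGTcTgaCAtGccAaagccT
The receptors, with 23 mismatches in 75 bases, also shared no run above 15 bases.
Adipor1: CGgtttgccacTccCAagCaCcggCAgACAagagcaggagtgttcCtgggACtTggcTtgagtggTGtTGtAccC
Adipor2: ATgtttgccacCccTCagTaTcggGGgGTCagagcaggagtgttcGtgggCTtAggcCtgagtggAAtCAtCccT
Stretches of 31 bases were compared, on the transcribed strand, with the transcripts of all other genes, and 7 of the 10 genes shared none. Overlaps with genes of the opposite strand, which this comparison does not see, are given with Paqr3, Stk11, Prkag1 and Prkag2. Prkaa1 and Prkaa2 shared 5 such stretches, which is 0.11% of Prkaa1 and 0.06% of Prkaa2, and 0.18% of the stretches of Adipor1 occurred in other genes. All counts of both α genes, both β genes, both γ genes and both receptors were whole numbers in the deposited table.

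**Figure D1:**
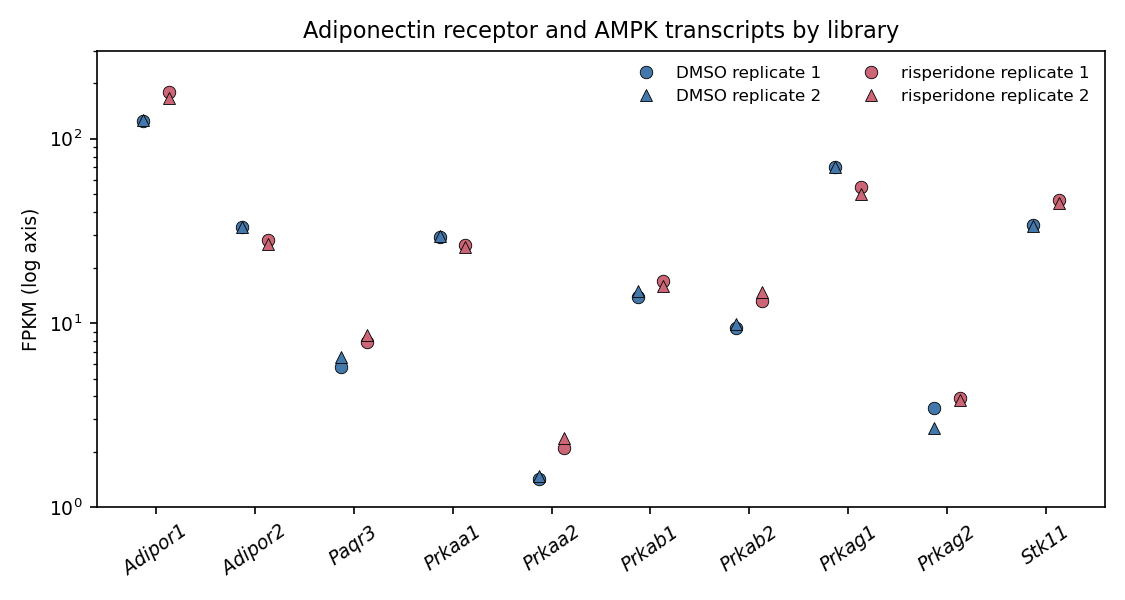
FPKM on a log axis of the 10 genes in each of the 4 libraries (DMSO in blue, risperidone in red, replicate 1 as circles, replicate 2 as triangles). The treatments did not overlap for 10 of the 10 genes (82.2% of all genes tested), or for 8 of 10 in TPM (84.9% of all genes tested), the smallest gap on this axis being that of Prkab1 (14.87 FPKM in DMSO replicate 2 against 15.89 FPKM in risperidone replicate 2).

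Adipor1 (gene 72674, chr1:134415378-134433351, plus strand, GRCm38) encodes the adiponectin receptor that is most closely tied to AMPK. Its FPKM was 125.03 and 125.58 with DMSO and 178.27 and 166.06 with risperidone. Both risperidone libraries lay above both DMSO libraries, as was so for 82.2% of all genes tested in one direction or the other. The mean FPKM was 125.3 ± 0.389 for DMSO and 172.2 ± 8.63 for risperidone (SD, n = 2 pooled libraries), and the log2 fold change of the counts was 0.55 (SE 0.052, adjusted p = 5.44e-06, edgeR's quasi-likelihood test). It was the most abundant of the 10 transcripts, and 95.6% of the genes tested had a lower mean FPKM.

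Adipor2 (gene 68465, chr6:119353150-119417704, minus strand) encodes the second receptor, which is known in liver for signalling through PPARα. It was read at 33.23 and 33.32 FPKM with DMSO and at 28.18 and 26.7 FPKM with risperidone. Here both risperidone libraries were the lower ones, opposite to Adipor1. The log2 fold change was -0.15 (SE 0.0496, adjusted p = 0.0198, edgeR's quasi-likelihood test), the smallest change called among the 10 genes, and it lost the call in 6 of 15 alternatives. Without DMSO replicate 1 or 2 it was -0.16 or -0.14 (adjusted p = 0.137 and 0.183, edgeR's quasi-likelihood test), and without risperidone replicate 2 it was -0.11 (adjusted p = 0.0892). With gene length offsets it was -0.08, and on log2(TPM + 1) with limma -0.41, or -0.19 relative to the median of all genes there.

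The receptor mix changed, with the larger log2 fold change in Adipor1 (0.55) and a smaller one, not called in every alternative, in Adipor2 (-0.15). Adipor1 made up 79.0% of the summed FPKM of both receptors in each DMSO library and 86.4% and 86.1% in the risperidone libraries. The ratio of Adipor1 to Adipor2 was 3.76 and 3.77 with DMSO and 6.33 and 6.22 with risperidone. The shift of 7.23 percentage points was far above the spread between replicates (SD 0.0197 and 0.143), although with 2 libraries per treatment an exact permutation test (two-sided) cannot give a p below 0.333, the value found for this and every other isoform share given below except that of Prkag3. Both receptors together summed to 158.6 ± 0.453 FPKM with DMSO and, 25.9% higher, to 199.6 ± 9.68 FPKM after risperidone, and 13.9% higher on the TPM scale (abundances scaled to the same sum in every library).

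Paqr3 (gene 231474, chr5:97082329-97111596, minus strand) encodes a Golgi protein of the same PAQR family, known for retaining RAF kinase at the Golgi. The FPKM was 5.8 and 6.56 in the DMSO libraries and 7.94 and 8.64 in the risperidone libraries. The treatments did not overlap, and risperidone replicate 2 was the highest. The log2 fold change was 0.52 (SE 0.118, adjusted p = 0.00245, edgeR's quasi-likelihood test) and 0.47 without risperidone replicate 2. Exons of Paqr3 overlap those of Bmp2k on the opposite strand over 1185 bases, the counts of Paqr3 were fractional in all libraries, and strandedness of the libraries is not given in the sources used here. Bmp2k itself had a log2 fold change of 0.0 (adjusted p = 0.953, edgeR's quasi-likelihood test).

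Stk11 (gene 20869, chr10:80115803-80130682, plus strand) encodes LKB1, the main upstream kinase of AMPK and a tumour suppressor. Its FPKM was 33.9 and 33.45 with DMSO and 46.77 and 44.88 with risperidone. Replicates lay close together and the treatments far apart, with means of 33.67 ± 0.318 and 45.83 ± 1.34 FPKM (SD, n = 2 libraries). Stk11 thus had a log2 fold change of 0.53 (SE 0.0581, adjusted p = 1.55e-05, edgeR's quasi-likelihood test). The gene Cbarp, on the opposite strand, overlaps 232 exonic bases of Stk11 and was lower with risperidone (log2 fold change -0.92).

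Among the catalytic subunits, Prkaa1 (gene 105787, chr15:5143861-5181899, plus strand), which encodes the widely expressed α1, was at 29.32 and 29.79 FPKM with DMSO and at 26.65 and 25.98 FPKM with risperidone. The risperidone libraries were the lower ones, but the log2 fold change of -0.10 (SE 0.0459) did not pass the test (adjusted p = 0.0767, edgeR's quasi-likelihood test). It was called lower in 5 of 15 alternatives, among them library size as the sole scaling, and was at -0.01 with gene length offsets.

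Prkaa2 (gene 108079, chr4:105029874-105109890, minus strand) encodes α2, the catalytic subunit typical of skeletal muscle and heart. It was the least abundant of the 10 transcripts, at 1.42 and 1.49 FPKM with DMSO and 2.09 and 2.37 FPKM with risperidone. The estimated counts behind these values were 188 and 191 with DMSO and 275 and 306 with risperidone, so both risperidone libraries were above both DMSO libraries and risperidone replicate 2 was again the highest. The log2 fold change of 0.71 (SE 0.115, adjusted p = 0.000261, edgeR's quasi-likelihood test) was the largest among the 10 genes, and it was 0.63 without risperidone replicate 2. On log2(TPM + 1) with limma it was 0.37 (adjusted p = 0.0531), or 0.59 relative to the median of all genes on that scale, and on log2(FPKM + 1) it was 0.40 (adjusted p = 0.0163). Values on these scales, which add a pseudocount of 1, understate the change of low genes.

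Prkaa2 took a larger share of the α transcripts, at 4.62% and 4.76% of their summed FPKM with DMSO and 7.27% and 8.36% with risperidone. Prkaa1 remained dominant in every library, exceeding Prkaa2 by a mean factor of 20.3 with DMSO and by 12.8 and 11.0 in the risperidone libraries. The sum of both α genes was 31.01 ± 0.382 FPKM with DMSO and 28.55 ± 0.276 FPKM with risperidone.

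The β subunits both rose. Prkab1 (gene 19079, chr5:116013586-116024508, minus strand), encoding β1, was at 13.8 and 14.87 FPKM with DMSO and at 16.89 and 15.89 FPKM with risperidone. The treatments did not overlap in FPKM, yet they did in TPM, with 28.59 and 30.51 against 30.92 and 30.25. The log2 fold change was 0.29 (SE 0.0676, adjusted p = 0.00317, edgeR's quasi-likelihood test), and 0.05 on log2(TPM + 1) with limma (adjusted p = 0.553).

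Prkab2 (gene 108097, chr3:97658193-97673812, plus strand) encodes β2, the scaffold found in muscle AMPK. Its FPKM was 9.35 and 9.91 with DMSO and 13.15 and 14.79 with risperidone. Both risperidone libraries were above both DMSO libraries, and the log2 fold change was 0.65 (SE 0.0715, adjusted p = 1.6e-05, edgeR's quasi-likelihood test) with all libraries and 0.58 without risperidone replicate 2. Prkab2 was called in all 15 alternatives.

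The share of Prkab2 in the β transcripts went from 40.4% and 40.0% with DMSO to 43.8% and 48.2% with risperidone, where the replicates were also further apart. The share of Prkab1 changed by -5.8 points with all libraries. It changed by -3.58 points without risperidone replicate 2 and by -8.02 points without risperidone replicate 1. The ratio of Prkab1 to Prkab2 narrowed from 1.48 and 1.5 to 1.28 and 1.07. Which β gene was in the majority depended on the quantity. In FPKM it was Prkab1, and in estimated counts, which are not divided by length, it was Prkab2, with a mean of 62.3% with DMSO and 67.9% with risperidone. The transcript length implied by count and FPKM was 1903 bases for Prkab1 and 4716 bases for Prkab2. The β sum was 23.96 ± 1.15 FPKM with DMSO and 30.36 ± 0.453 FPKM with risperidone, which is 26.7% higher.

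**Figure D2:**
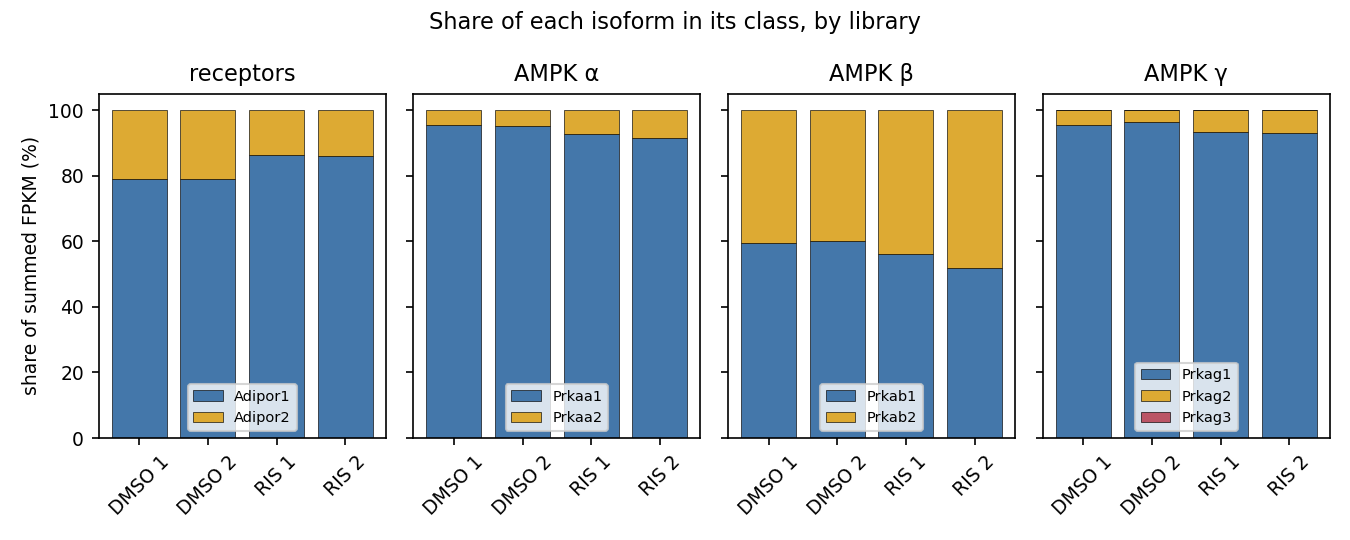
Share of each isoform in the summed FPKM of its class (%, from 0 to 100) in each library, for the receptors and the α, β and γ subunits of AMPK, with risperidone abbreviated RIS. Adipor2, Prkaa1, Prkab1 and Prkag1 took a smaller share in both risperidone libraries than in both DMSO libraries, and Prkag3 is too low to be seen.

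Of the γ subunits, which bind the adenine nucleotides, Prkag1 (gene 19082, chr15:98812797-98831521, minus strand) encodes the widely expressed γ1 and moved down. Its FPKM was 70.12 and 70.14 with DMSO and 54.48 and 49.86 with risperidone. Both risperidone libraries were below both DMSO libraries, with means of 70.13 ± 0.0141 and 52.17 ± 3.27 FPKM (SD, n = 2 libraries). This gave a log2 fold change of -0.33 (SE 0.0585, adjusted p = 0.000506, edgeR's quasi-likelihood test), or -0.26 without risperidone replicate 2. The antisense gene B130046B21Rik, not analysed here, overlaps 950 exonic bases of Prkag1.

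Prkag2 (gene 108099, chr5:24862744-25100642, minus strand) encodes γ2, mutated in a glycogen storage cardiomyopathy. It was at 3.46 and 2.71 FPKM with DMSO and 3.9 and 3.81 FPKM with risperidone. The DMSO replicates differed more from each other than DMSO replicate 1 did from either risperidone library, and in TPM the treatments overlapped. The log2 fold change of 0.28 (SE 0.152) did not pass edgeR's quasi-likelihood test (adjusted p = 0.126), nor any of the 14 alternatives in which it was tested, and was 0.42 without DMSO replicate 1 and 0.16 without DMSO replicate 2. Exons of Prkag2 overlap the antisense genes Prkag2os2 and Prkag2os1, which were not analysed here.

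The third γ gene, Prkag3, typical of fast skeletal muscle, had 0 counts in both DMSO libraries and in risperidone replicate 1 and 1 count in risperidone replicate 2, so no fold is given. Prkag1 made up nearly all γ transcripts, and the share of Prkag2 was 4.7% and 3.72% with DMSO against 6.68% and 7.1% with risperidone. The γ sum averaged 73.22 ± 0.516 FPKM for DMSO and 56.03 ± 3.32 FPKM for risperidone, a change of -23.5%.

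Across the complex, the γ transcripts exceeded the α transcripts by a factor of 2.36 with DMSO and 1.96 with risperidone, and the β transcripts amounted to 0.773 and 1.06 times the α transcripts. On the TPM scale the α sum changed by -16.7%, the β sum by 14.8% and the γ sum by -30.7%. In FPKM the α sum changed by -7.95%. The median gene of all genes tested changed by -15.1% in TPM and by -6.2% in FPKM, so the α sum lay near the median gene on both scales, the γ sum below it and the β sum above it. Within each class, the isoform of lower FPKM gained share for α, β and γ, and the isoform of higher FPKM gained share for the receptors. For β this order holds in FPKM only, since Prkab2 had the larger share of counts with both treatments. For γ, Prkag2 itself did not pass the test while Prkag1 was lower.

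The order of the FPKM levels was Adipor1, Prkag1, Stk11, Adipor2, Prkaa1, Prkab1, Prkab2, Paqr3, Prkag2 and Prkaa2, from the highest to the lowest, with both treatments. No 2 neighbours in this order overlapped between libraries of 1 treatment. Stk11 and Adipor2 with DMSO, and Adipor2 and Prkaa1 with risperidone, were separated by little more than the replicate SD of the higher gene (0.318 and 1.05 FPKM).

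**Figure D3:**
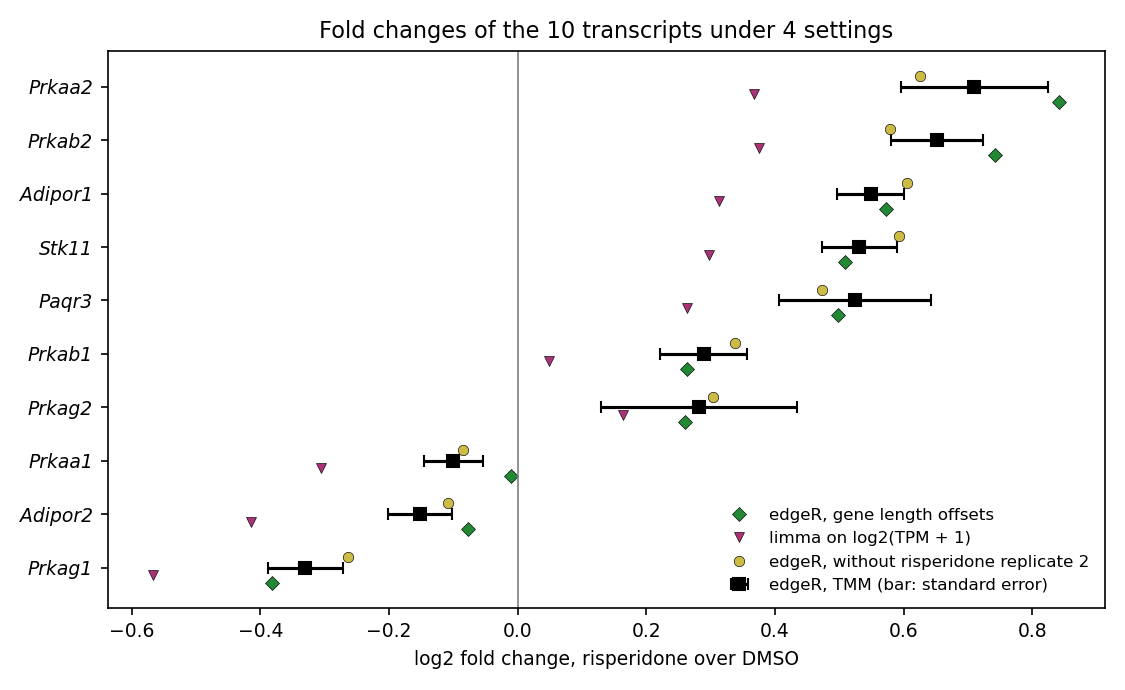
Log2 fold change of risperidone over DMSO for the 10 genes, ordered by size, from edgeR with TMM factors (squares, bars for 1 standard error), with gene length offsets (diamonds), without risperidone replicate 2 (circles), and from limma on log2(TPM + 1) (triangles). Each gene lies on the same side of 0 under these 4 settings, and the TPM scale places every gene lower, as it does the median of all genes (-0.22).

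Of the 8 genes tested in all 15 alternatives, 5 (Adipor1, Paqr3, Prkab2, Prkag1 and Stk11) were called in each of them, as were 38.6% of the 8052 genes tested in all. On log2(TPM + 1) the median of all genes tested was -0.22, and relative to it Prkab1 was at 0.27, Prkaa2 at 0.59, Prkaa1 at -0.08 and Prkag1 at -0.34. With library size as the sole scaling the median was -0.09 and the share of higher genes among all calls was 37.9%, against 49.9% with TMM and 22.5% on TPM with limma.

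Upstream sequences are shown for Adipor1 and Stk11, both higher with risperidone, and Prkag1, the γ gene that was lower, as the 250 bases before the RefSeq start (for Adipor1, the first of its starts; GRCm38.p6, 5′ to 3′ along the gene). Capitals mark the GC box GGGCGG and the CCAAT box, on either strand, which were searched together with TATAAA. Adipor1, chr1:134415128-134415377 on the plus strand, held 2 GC boxes, which overlap in the run shown near its 3′ end, and 1 CCAAT box.
Adipor1: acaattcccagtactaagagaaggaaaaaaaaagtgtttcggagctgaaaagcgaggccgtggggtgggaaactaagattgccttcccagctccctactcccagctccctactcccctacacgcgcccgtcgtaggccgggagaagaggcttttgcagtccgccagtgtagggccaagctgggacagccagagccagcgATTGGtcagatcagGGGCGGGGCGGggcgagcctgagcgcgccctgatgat
Stk11, chr10:80115545-80115794 on the plus strand, held 3 CCAAT boxes and no GC box.
Stk11: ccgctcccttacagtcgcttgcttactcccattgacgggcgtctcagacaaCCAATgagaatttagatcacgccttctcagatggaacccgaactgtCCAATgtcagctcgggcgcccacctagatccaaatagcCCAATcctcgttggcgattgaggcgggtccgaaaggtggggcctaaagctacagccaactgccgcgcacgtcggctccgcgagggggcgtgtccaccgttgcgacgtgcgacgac
Prkag1, chr15:98831509-98831758 on the minus strand, held 1 CCAAT box and 1 GC box, and its last bases lie within the GENCODE exon.
Prkag1: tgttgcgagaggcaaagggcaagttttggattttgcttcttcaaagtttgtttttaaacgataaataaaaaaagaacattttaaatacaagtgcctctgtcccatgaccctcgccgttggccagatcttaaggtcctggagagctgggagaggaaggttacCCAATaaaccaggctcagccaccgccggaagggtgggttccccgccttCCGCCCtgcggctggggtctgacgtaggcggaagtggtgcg
None of the 10 genes had TATAAA in this window. Of 32851 RefSeq promoter windows of this length, 32.7% held the GC box, 33.8% the CCAAT box and 12.4% TATAAA. A match is a description of the letters, and no binding was measured.

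Genes that work with the receptors and AMPK were taken from 4 lists. Among adiponectin, its homologues, receptor partners and other PAQR genes, 8 of 14 genes in the table were tested, of which 3 were higher, 1 was lower and 4 were not called, that is 4 of 8 called against 64.3% of all genes tested, with a median log2 fold change of 0.23. Adipoq, the ligand itself, had 1 and 0 counts with DMSO and 1 and 1 counts with risperidone, at or under what a count of 0 allows. Cdh13, encoding T-cadherin, which binds adiponectin oligomers, was at 20.88 and 21.25 FPKM with DMSO and 25.64 and 25.55 FPKM with risperidone (log2 fold change 0.38, and 0.13 on TPM, where it did not pass). The receptor adaptor Appl2 had a log2 fold change of 0.33, which was 0.06 on TPM, and lost its call with limma on FPKM and on TPM. Its relative Appl1 had a log2 fold change of 0.12 that did not pass the test (adjusted p = 0.0869, edgeR's quasi-likelihood test). The secreted adiponectin homologue C1qtnf6 was lower (-0.22), a call lost without DMSO replicate 2.

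Of the LKB1 partners and other AMPK kinases and regulators, 20 of 23 were tested, 6 being higher, 7 lower and 7 not called (65.0% called, median -0.02). The sestrins, stress-induced proteins known to promote AMPK activity and to restrain mTORC1, held the largest changes. Sesn2 fell from 21.16 and 22.02 FPKM to 6.84 and 7.32 FPKM (log2 fold change -1.51, SE 0.0634) and Sesn3 from 24.79 and 20.12 FPKM to 8.5 and 8.93 FPKM (-1.27, SE 0.0979), whereas Sesn1 had a log2 fold change of -0.02 that did not pass the test. Tab1, which activates TAK1, was higher (0.66) and Ampd3, an AMP deaminase, was lower (-0.57). In the LKB1 complex, Stradb was higher (0.48), while Strada (0.04) and the scaffold Cab39 (-0.02) did not pass. The related scaffold Cab39l was higher (0.27, adjusted p = 0.00966, edgeR's quasi-likelihood test), a call lost in 6 of 15 alternatives, among them the fit without DMSO replicate 1.

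The other kinases that LKB1 activates gave 3 higher, 4 lower and 4 not called of 11 tested (63.6% called, median 0.08). Mark2, a microtubule-regulating kinase, went from 23.04 and 22.19 FPKM to 13.4 and 14.11 FPKM (log2 fold change -0.62), whereas its relative Mark4 was higher (0.46). The salt-inducible kinases Sik1 (0.49) and Sik3 (0.24) were higher, of which Sik3 was at 0.0 on TPM, and Mark4 did not pass on TPM either (0.16).

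Of the AMPK substrates, 24 of 26 in the table were tested, of which 5 were higher, 11 lower and 8 not called (66.7% called, median -0.04). Txnip, an inhibitor of glucose uptake that AMPK marks for degradation, rose from 951.58 and 943.63 FPKM to 2115.39 and 1884.2 FPKM (log2 fold change 1.17, SE 0.0608). Lipe, hormone-sensitive lipase, fell from 7.88 and 7.23 FPKM to 3.24 and 3.17 FPKM (-1.12, SE 0.12), and Lipe is also a gene of mature fat cells, whose markers are given above. Gys1, the muscle-type glycogen synthase, and Gpam, which starts triglyceride synthesis, were lower (-0.48 and -0.46). Of the acetyl-CoA carboxylases, Acaca had a log2 fold change of 0.12 that did not pass the test (adjusted p = 0.0692, edgeR's quasi-likelihood test), and Acacb, at 0.81 and 0.82 FPKM with DMSO and 1.14 and 1.09 FPKM with risperidone, was under the limit of 1 FPKM and had 0.55 (adjusted p = 0.012, edgeR's quasi-likelihood test) where no limit was set.

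**Figure D4:**
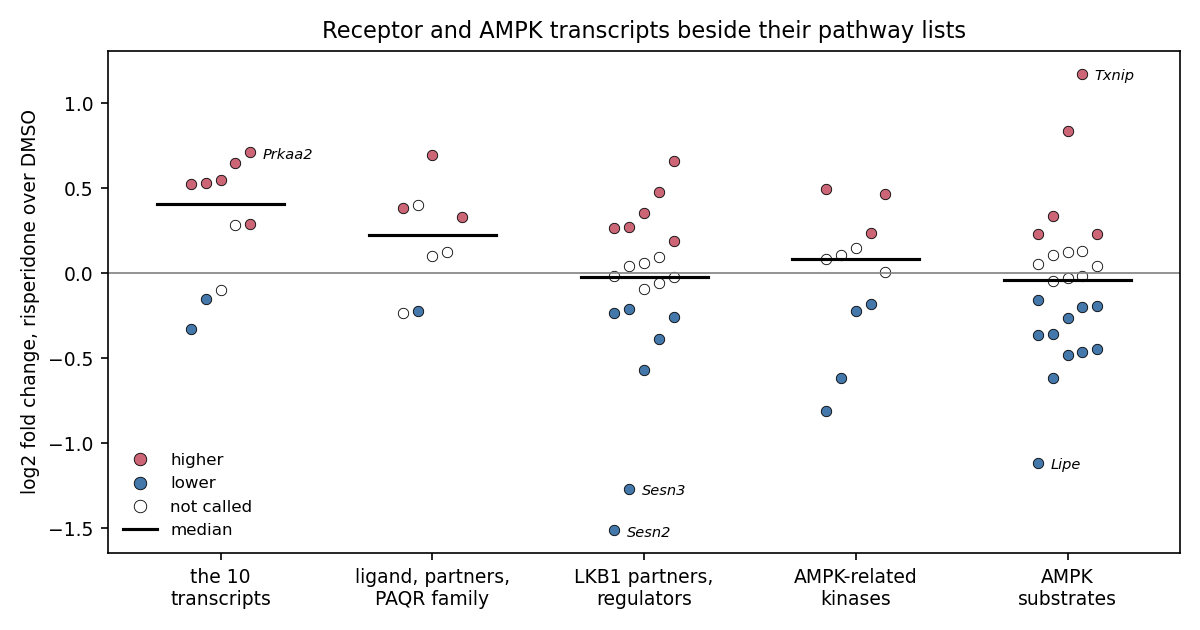
Log2 fold change of risperidone over DMSO (edgeR) for each tested gene of the 10 genes and of the 4 lists, coloured by call, with the median as a bar. The medians are 0.41 for the 10 genes and 0.23, -0.02, 0.08 and -0.04 for the lists from left to right, and Sesn2 (-1.51) and Txnip (1.17) are the extremes.

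The genes whose pattern over the 4 libraries was nearest to that of Adipor1, by Euclidean distance of the centred log2(FPKM + 1) among 8052 genes averaging 5 FPKM or more, were Praf2 (0.00987), Abhd8 (0.015) and Zfand3 (0.0166). Praf2 was at 67.31 and 67.49 FPKM with DMSO and 95.88 and 90.09 FPKM with risperidone. Nearest to Prkag1 were Srebf1 (0.00291), Irf2bp1 (0.0082) and Cnep1r1 (0.0153). Srebf1, encoding the lipogenic transcription factor SREBP-1, was at 13.89 and 13.86 FPKM with DMSO and 10.6 and 9.65 FPKM with risperidone. With 4 libraries in 2 treatments, this likeness is a description.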

How the data were processed

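Processed tables of 4 RNA-seq libraries (2 DMSO, 2 risperidone; grouping from the labels) were used as deposited. The submitters' processing notes name Bowtie2, RSEM, DESeq2 and GRCm38.p6, without versions, and sequencing was on MGISEQ-2000. The deposited values are estimated counts (expected counts, without normalization), FPKM and TPM computed by the authors, and their group means were not used. Time was taken from the study's methods, and the dose is the one its text gives for the cell experiments. Each library pools 3 cultures, so p-values measure only the spread between pooled libraries.

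Rounded counts were compared by the quasi-likelihood F-test of edgeR 4.0.16 under R 4.3.3 (two-sided, TMM scaling, Benjamini-Hochberg adjustment over 10243 genes averaging 1 FPKM or more, threshold 0.05; biological coefficient of variation 0.0468). Fits were also run on simulated counts, drawn with the same dispersion for all genes. This checked the code and does not test the calls made here. Shares are percentages of summed FPKM per class. Alternatives used limma 3.58.1 (pseudocounts 1 and 0.1), DESeq2 1.42.0, other filters and scalings, and each library left out. Promoters came from RefSeq (10 of 10 genes matched), coding sequences and exons from GENCODE.

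The members, the 4 gene lists and the 7 marker lists were chosen with earlier results of these data known. Named are the 10 genes, up to 4 called genes per list with the largest change and a mean of at least 5 FPKM, Adipoq, Prkag3, Acaca, Acacb, and the 3 genes nearest to Adipor1 and to Prkag1. Sesn1, Appl1, Strada, Stradb, Cab39, Cab39l, Srebf1's levels, the marker genes and the overlapping genes were added after values were seen.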

Additional observations from a re-analysis of the deposited data

How the results depend on the processing

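Over 15 alternatives no gene among the 10 changed direction. The number called lower, 2 with all libraries, was 1 without a filter on low values, with gene length offsets and with DESeq2, and 1 to 2 when a library was left out, the lone library of a treatment then being assumed to vary like the others. The lost call was that of Adipor2 in each case (1 without DMSO replicate 1, DMSO replicate 2 or risperidone replicate 2), and its adjusted p over the alternatives was 0.000164 to 0.183. Prkaa1 was called lower with a mean of at least 5 FPKM (-0.13), library size alone (-0.19), limma on FPKM with either pseudocount (-0.16 and -0.17) and limma on TPM (-0.31). Prkaa2 and Prkab1 lost their calls on TPM. In shares of counts instead of FPKM, the share of Prkaa1 changed by -5.26 points in place of -3.12, that of Prkag1 by -3.25 in place of -2.7 and that of Adipor1 by 8.0 in place of 7.23; the cause was not tested beyond the division by length that sets these quantities apart. The list counts moved by over 1.5 times on TPM with limma, to 0 higher and 2 lower for the ligand and PAQR list, 2 higher and 14 lower for the LKB1 partners and regulators, 1 higher for the related kinases and 2 higher for the substrates, where 1536 of all genes were higher and 5292 lower. Limma on FPKM gave 1 higher in the first and 3 higher in the second list. With at least 5 FPKM, gene length offsets or without DMSO replicate 1, the related kinases had 2 lower, and without DMSO replicate 2 the first list had 0 lower. The labels give both treatments replicate numbers 1 and 2, and same-numbered libraries did not deviate together (correlation -0.107). With a single difference between replicates per treatment, this cannot show whether cultures were handled in pairs, so pairing is not known. With a replicate block the call of no gene among the 10 changed, 8 were called, and 3292 genes were higher and 3321 lower in all, against 3287 and 3303 without it. A crossed pairing, added after seeing the data, gave 3474 higher and 3519 lower. With 2 libraries per treatment no exact permutation test can reach p = 0.05, and Prkag2 (110 to 142 counts) and Prkaa2 (188 to 306 counts) rest on the fewest reads together with Paqr3.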

Other observations

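Some PAQR genes below the limit of 1 FPKM, picked after their values were seen, had uneven counts. Paqr9 had 0 counts in both DMSO libraries and in risperidone replicate 1 and 10 counts in risperidone replicate 2, the library with kidney-type transcripts, and Paqr5 had 3, 5 and 3 counts against 17. Paqr8, which encodes a membrane progesterone receptor, had 20 and 24 counts with DMSO and 9 and 11 counts with risperidone, without overlap and with no test. Ppargc1a, encoding the mitochondrial coactivator PGC-1α, an AMPK substrate, was at 0.33 and 0.38 FPKM with DMSO and at 0.47 and 0.66 FPKM with risperidone. These values rest on 29 and 38 counts with DMSO and 48 and 65 counts with risperidone, and the gene was not tested. The highest value was that of risperidone replicate 2, the library with kidney-type transcripts.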
